A study of Mus musculus with 6 samples.

Results

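The transcripts described here are those of 28 genes of cholesterol synthesis, its SREBP control, uptake, storage and efflux, chosen by name from the 23038 genes that each library lists. The list held 29 names, of which Msmo1 and Sc4mol are the same gene, and every gene on it was found in the files (Msmo1 under its older symbol). All 28 passed the filter on low counts, an average logCPM over 0, which kept 12505 genes for testing. The question was how their levels in mouse oligodendrocyte precursor cells (mOPCs) compared between control cells and cells in which Qk had been knocked down (KD).

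The mOPCs were purified from mid-gestation mouse embryos by immunopanning, in which cells are caught on antibody-coated dishes. Their strain is not given in the sources used here. Both groups were transfected with siRNA and collected 72 h later, 3 libraries with control siRNA (siNC) and 3 with siRNA against Qk (siQk), so that the control cells went through transfection as well. The labels call them biological replicates, and the study's methods speak of independent cultures without saying whether these came from separate animals. The labels name 3 different Qk siRNAs, but not which library received which, and siRNA and replicate cannot be told apart in siQk. Poly(A)-selected RNA was sequenced, and the level of a gene is given as RPKM, the reads per kilobase of its exons, scaled to library size.

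Brain cholesterol is made locally, because plasma lipoproteins do not cross the blood-brain barrier, and myelin is among the most cholesterol-rich membranes of the body. Synthesis runs from acetyl-CoA through mevalonate to farnesyl diphosphate and then through squalene and lanosterol to cholesterol. Most enzymes of the route are transcribed under SREBP-2, a membrane-bound factor that SCAP escorts to the Golgi for cleavage when sterol is low and that the INSIG proteins hold back when sterol is high. Oxysterols made when sterol is in excess activate the LXR receptors, which raise the efflux pumps ABCA1 and ABCG1 and the ubiquitin ligase MYLIP. Qki, the protein of Qk, is a STAR-family RNA-binding protein of glia that recognises ACTAAC or ACTAAT, written here in DNA letters.

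Library totals ranged from 58166490 to 141045937 tags. The Qk level was 209, 206 and 163 RPKM in the siNC libraries and 51.3, 76.6 and 36.2 in the siQk libraries. The groups did not overlap, and the log2 fold change was -1.98 (SE 0.28, edgeR adjusted p = 0.0031). The gene lies at chr17:10206471-10319361 on the minus strand (GRCm38, the assembly called mm10). One siNC library, replicate 1, stood apart with 3.11% of its tags on the ribosomal RNA precursor Rn45s, against 0.169 to 0.389% in the other 5. Most OPC markers were abundant, with a summed level of 1023 to 1100.2 RPKM over 8 genes in siNC and 1217 to 1369.5 in siQk. Of the 8, 3 were called higher (Olig1, Olig2 and Cspg4, the last at 1.69 to 2.57 RPKM in siNC) and 1 lower (Lhfpl3, log2 fold change -1.07). All marker sums here are RPKM, not corrected for composition. Markers of myelinating OLs were abundant too, and their sum was 3252 to 5736 RPKM in siNC and 1371 to 2071 in siQk, with 6 of 8 called lower (median log2 fold change -1.67). The 7 astrocyte markers summed to 101 to 159 RPKM in siNC and 35.0 to 39.0 in siQk, with 4 of 6 tested called lower. Gfap was the highest of them in siNC, at 51.4, 54.6 and 101 RPKM, and was at 9.16, 9.08 and 11.3 in siQk. Gja1 ranged from 0 to 0.0130 RPKM. The 8 neuronal markers summed to 102 to 172 RPKM in siNC and 81.9 to 121 in siQk, mostly Tubb3, which was not called. Of the 6 tested, 2 were called higher, Snap25 (log2 fold change 2.64, 0.641 to 0.886 RPKM in siNC and 3.35 to 7.57 in siQk) and Nefl (1.61, 1.63 to 2.35 and 6.06 to 6.52 RPKM), and none lower, with Stmn2 at or under 0.0439 and Slc17a6 at 0 in every library. Of the microglial and of the fibroblast and vascular markers, all but Cd68 and Kdr were at or under 0.375. In bulk RNA, fewer cells of a type and less RNA per cell cannot be told apart.

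Of the 28 genes, 3 were called lower in siQk and none higher, by edgeR's quasi-likelihood test (called at P under 0.01 and an adjusted p, FDR, under 0.1). The 3 were Hmgcs1 and Soat1, an enzyme each of synthesis and of storage, and Abca1, the cholesterol exporter. The other 25 were not called. The share called was 10.7%, against 31.0% of all tested genes (13.8% higher and 17.2% lower), and 9 of the 28 had an unadjusted P under 0.05, against 48.8% of tested genes. Among all calls, 55.4% were lower, a share that was 44.4% with upper quartile scaling and 31.4% with library sizes alone. The median log2 fold change of the 28 was -0.057, beside 0.010 over all tested genes. On the log2 scale, 19 of 28 (67.9%) lay within 0.25 of 0, against 49.7% of tested genes. Within 0.5 lay 24 (85.7%), against 75.9%, and within 1 lay 26 (92.9%), against 91.9%. No call was made for Srebf2, Scap, Insig1 or Insig2, the regulators of the route.

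**Figure D1:**
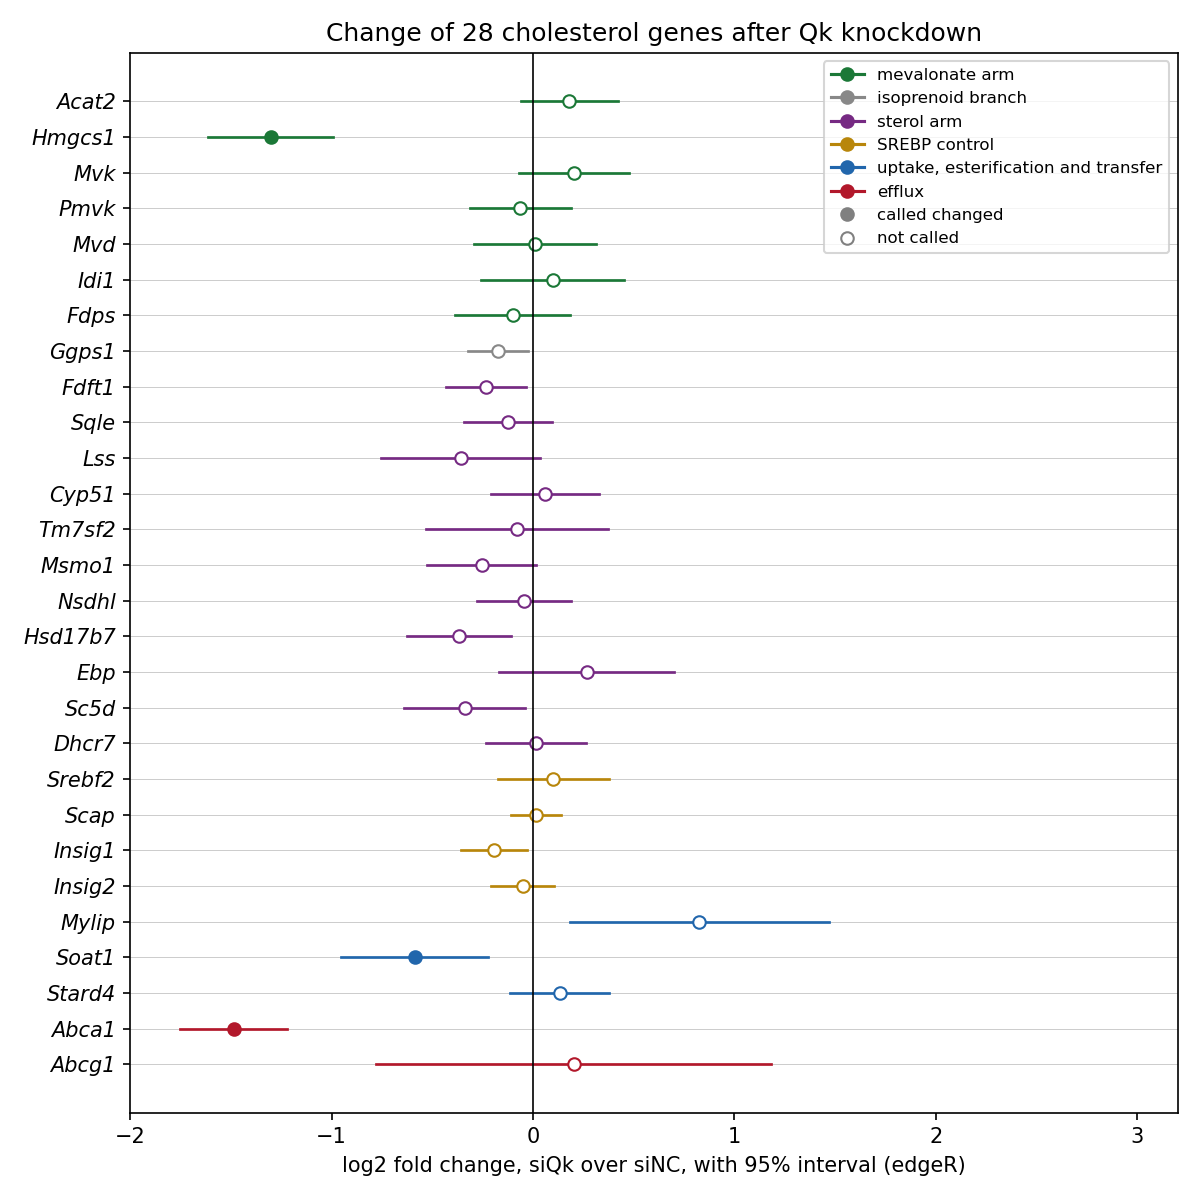
Log2 fold change of each of the 28 genes, siQk over siNC (x axis, log2 units), with the 95% interval of the edgeR fit, in order of the pathway from top to bottom. Filled points are called changed: Hmgcs1 (-1.30), Soat1 (-0.59) and Abca1 (-1.49), while the intervals of most other genes reach 0.

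RPKM values compare genes and libraries per length and per library size, but they are not corrected for composition. The TMM factors of the count test were 0.899 to 0.987 in siNC and 1.04 to 1.07 in siQk, so that RPKM levels in siQk sit higher against siNC than the fitted fold changes do. With library sizes alone, the log2 fold change had a median of 0.16 over all tested genes and of 0.094 over the 28 genes. In RPKM, the groups did not overlap for 8 of 28 genes (28.6%), 6 with siQk above and 2 with siQk below, against 58.3% of tested genes (41.9% above, 16.4% below). After TMM scaling the groups did not overlap for 8 again, 1 above (Mylip) and 7 below (Hmgcs1, Ggps1, Fdft1, Hsd17b7, Insig1, Soat1 and Abca1), against 54.4% of tested genes (27.8% above, 26.5% below). Fold changes below are from the TMM fit, and levels are deposited RPKM.

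**Figure D2:**
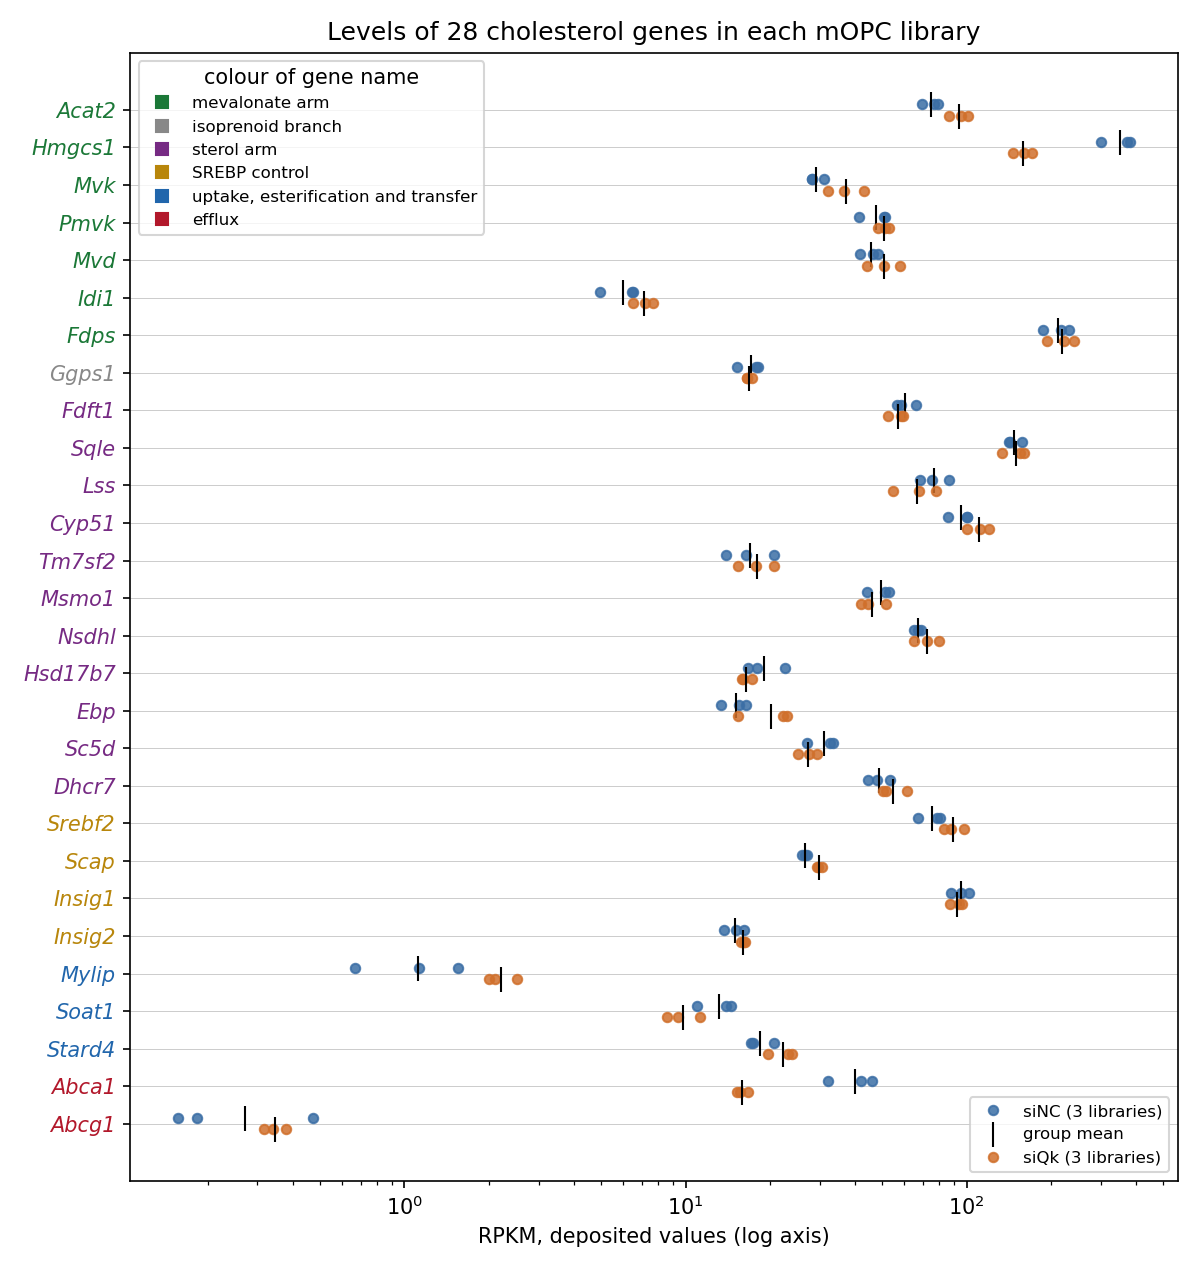
RPKM of the 28 genes in every library (log axis), siNC in blue and siQk in orange, with a bar at each group mean and gene names coloured by step of the pathway. Hmgcs1 and Abca1 are the 2 genes whose siQk points all lie below the siNC points, and levels run from under 1 RPKM (Abcg1) to 381 (Hmgcs1 in siNC).

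Hmgcs1, the cytosolic synthase that condenses acetyl-CoA with acetoacetyl-CoA to HMG-CoA, had the largest change of the 18 enzymes on the list. It (Entrez gene 208715) lies at chr13:119690351-119708260 on the plus strand. The 250 bases before its annotated start are shown because the gene is a textbook SREBP target and its promoter carries the letters of that control. Capitals mark TCACCCCAC, a form of the sterol regulatory element, 137 bases before the start, and the CCAAT box in its reverse form ATTGG, at 237, 176 and 45 bases before the start (RefSeq, GRCm38.p6, positions counted at the first base of each match).
Hmgcs1, chr13:119690101-119690350, plus strand: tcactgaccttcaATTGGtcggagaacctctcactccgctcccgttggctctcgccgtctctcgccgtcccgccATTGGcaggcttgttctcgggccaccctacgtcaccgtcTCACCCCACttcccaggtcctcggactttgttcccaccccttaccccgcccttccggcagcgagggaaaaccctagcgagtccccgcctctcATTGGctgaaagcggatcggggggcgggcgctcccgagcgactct

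The Hmgcs1 level was 381, 301 and 372 RPKM in the siNC libraries and 159, 146 and 170.3 in the siQk libraries. The highest siQk value was under the lowest siNC value. The mean was 351 ± 43.7 (SD, n = 3) in siNC and 158 ± 12.3 in siQk, and the log2 fold change was -1.30 (SE 0.13, edgeR adjusted p = 0.0012), a 2.47-fold lower level. The call held under all 16 alternative settings, with log2 fold changes from -1.41 to -1.15. An exact two-sided permutation test of 3 libraries against 3 cannot go below 0.1 and was not used for calls. An antisense gene, Gm48342, overlaps 557 exonic bases of Hmgcs1 and is not listed in the files, and the library kit does not mark strand, so that reads from either gene cannot be told apart.

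The other 6 enzymes of the mevalonate arm were not called. Acat2, the cytosolic thiolase that makes acetoacetyl-CoA, ranged from 69.2 to 79.1 RPKM in siNC and from 86.4 to 101 in siQk (log2 fold change 0.18). Its near copy Acat3 could share reads with it. Mvk, mevalonate kinase, ranged from 28.2 to 31.0 RPKM in siNC and from 32.1 to 43.1 in siQk (0.20). In RPKM both had siQk above siNC in every library, as had Idi1, the isopentenyl diphosphate isomerase (4.96 to 6.50 and 6.51 to 7.65 RPKM, log2 fold change 0.10), but after TMM scaling all 3 overlapped. Pmvk and Mvd, the next kinase and the decarboxylase, had log2 fold changes of -0.06 and 0.01. Fdps, the farnesyl diphosphate synthase at the branch to isoprenoids, ranged from 186 to 231 RPKM in siNC and from 192 to 240.5 in siQk (log2 fold change -0.10, 95% interval -0.39 to 0.18). Ggps1, which takes the isoprenoid branch to geranylgeranyl diphosphate, was near 17 RPKM in both groups, with a log2 fold change of -0.17 (95% interval -0.33 to -0.02, edgeR adjusted p = 0.069).

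The place of Hmgcs1 among the enzymes differed between the groups. Over the 18 enzymes of the mevalonate and sterol arms on the list, Hmgcs1 held 26.2, 23.9 and 25.4% of the summed RPKM in the siNC libraries and 12.6, 13.0 and 12.4% in the siQk libraries. It was the most abundant of the 18 in each siNC library. In each siQk library Fdps came first and Hmgcs1 took rank 2, and Sqle had rank 3 in all 6. The summed level of the 18 was 1393 ± 116 RPKM in siNC and 1255 ± 124 in siQk. Without Hmgcs1 the sum of the other 17 was 1041 ± 73.2 in siNC and 1097 ± 112 in siQk, with overlapping libraries. These sums are RPKM, not corrected for composition. In the TMM fit, 7 of the 18 had a log2 fold change above 0 and 11 below, with a median of -0.071.

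None of the 11 enzymes of the sterol arm was called. Their log2 fold changes ran from -0.37 to 0.27 with a median of -0.12, 3 above 0 and 8 below. Fdft1 makes squalene, Sqle oxidises it and Lss closes it to lanosterol. Sqle, a rate-controlling step, ranged from 141 to 157 RPKM in siNC and from 134 to 160.1 in siQk (log2 fold change -0.12, 95% interval -0.34 to 0.09). Fdft1 was at -0.23 (edgeR adjusted p = 0.066). Lss had the second lowest log2 fold change of the arm at -0.36, with a wide interval of -0.76 to 0.04.

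Cyp51, the lanosterol demethylase, ranged from 85.6 to 101 RPKM in siNC and from 99.9 to 120.2 in siQk (log2 fold change 0.06). Tm7sf2, a sterol reductase, was at -0.08, and Msmo1, the methylsterol monooxygenase, ranged from 44.2 to 52.9 RPKM in siNC and from 42.0 to 51.5 in siQk (-0.25). Nsdhl and Hsd17b7 complete the removal of the methyl groups and were at -0.05 and -0.37. Hsd17b7 missed the call (edgeR adjusted p = 0.036, with the unadjusted P of edgeR over 0.01) and passed it under 4 of 16 alternatives, DESeq2 and the fit without siNC replicate 2 among them. Ebp, the sterol isomerase, had the highest log2 fold change of the arm, 0.27, with 13.4 to 16.4 RPKM in siNC and 15.4 to 22.9 in siQk, and the groups overlapped. Sc5d and Dhcr7, late steps to cholesterol, were at -0.34 and 0.01, and Sc5d was called lower under 1 alternative, without siNC replicate 3 (-0.45). Exons of Fdps, Fdft1, Lss, Cyp51, Idi1, Scap and Tm7sf2 overlap those of another annotated gene by 14 to 1124 bases, and their values are uncertain to that degree. The longest overlap, 1124 bases, is that of Fdps with Gm43738 on the same strand, beside an exon length of 1293 for Fdps. The rank of Fdps given above carries this limit.

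None of the 4 regulators of the route was called. Srebf2, the gene of SREBP-2, was at 78.1, 80.1 and 67.3 RPKM in siNC and 87.9, 83.1 and 98.1 in siQk. All siQk libraries were higher in RPKM, but they overlapped siNC after TMM scaling, and the log2 fold change was 0.10 (SE 0.12, edgeR adjusted p = 0.52). Scap, the escort, was at 25.9, 26.7 and 27.1 RPKM in siNC and 29.5, 30.5 and 29.3 in siQk. Its log2 fold change was 0.01, with a narrow 95% interval of -0.11 to 0.14. Insig1, itself an SREBP target and thus often read as a gauge of the pathway, was at 88.0, 95.3 and 102 RPKM in siNC and 93.8, 86.9 and 96.3 in siQk. The groups overlapped in RPKM, while after TMM scaling every siQk value was under the siNC values, and the log2 fold change of -0.19 (SE 0.07, edgeR adjusted p = 0.067) was not called. Insig2, its paralog, was lower in level at 13.7, 16.1 and 15.1 RPKM in siNC and 16.2, 16.1 and 15.7 in siQk (log2 fold change -0.05, 95% interval -0.21 to 0.10). These are RNA levels and do not measure the cleaved SREBP-2 protein.

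The promoters were searched for 3 motifs, CCAAT, TCACCCCAC and the E-box CANNTG. Both strands were searched over the 300 bases from 250 before to 50 after each annotated start. A further pattern, described with Abca1 below, was searched in the same windows. A window was found for 23 of the 28 genes, and none was at hand for Fdps, Fdft1, Sqle, Stard4 and Abcg1. CCAAT was present in at least 1 window of 20 of the 23 genes (87.0%), against 43.6% of tested genes with a window and 41.1% of all genes with one. TCACCCCAC was found in 1 of the 23 (4.35%), Hmgcs1, against 0.632% of tested genes, and CANNTG in 73.9% against 66.5%. CCAAT, the box bound by NF-Y, was thus found in the called genes Hmgcs1 and Soat1 and in most genes that were not called. The genes with a window but without it were Acat2, Scap and Abca1, of which Abca1 was called. A match to letters is no binding site in itself, and a window without a match says only that these letters are not in it.

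**Figure D3:**
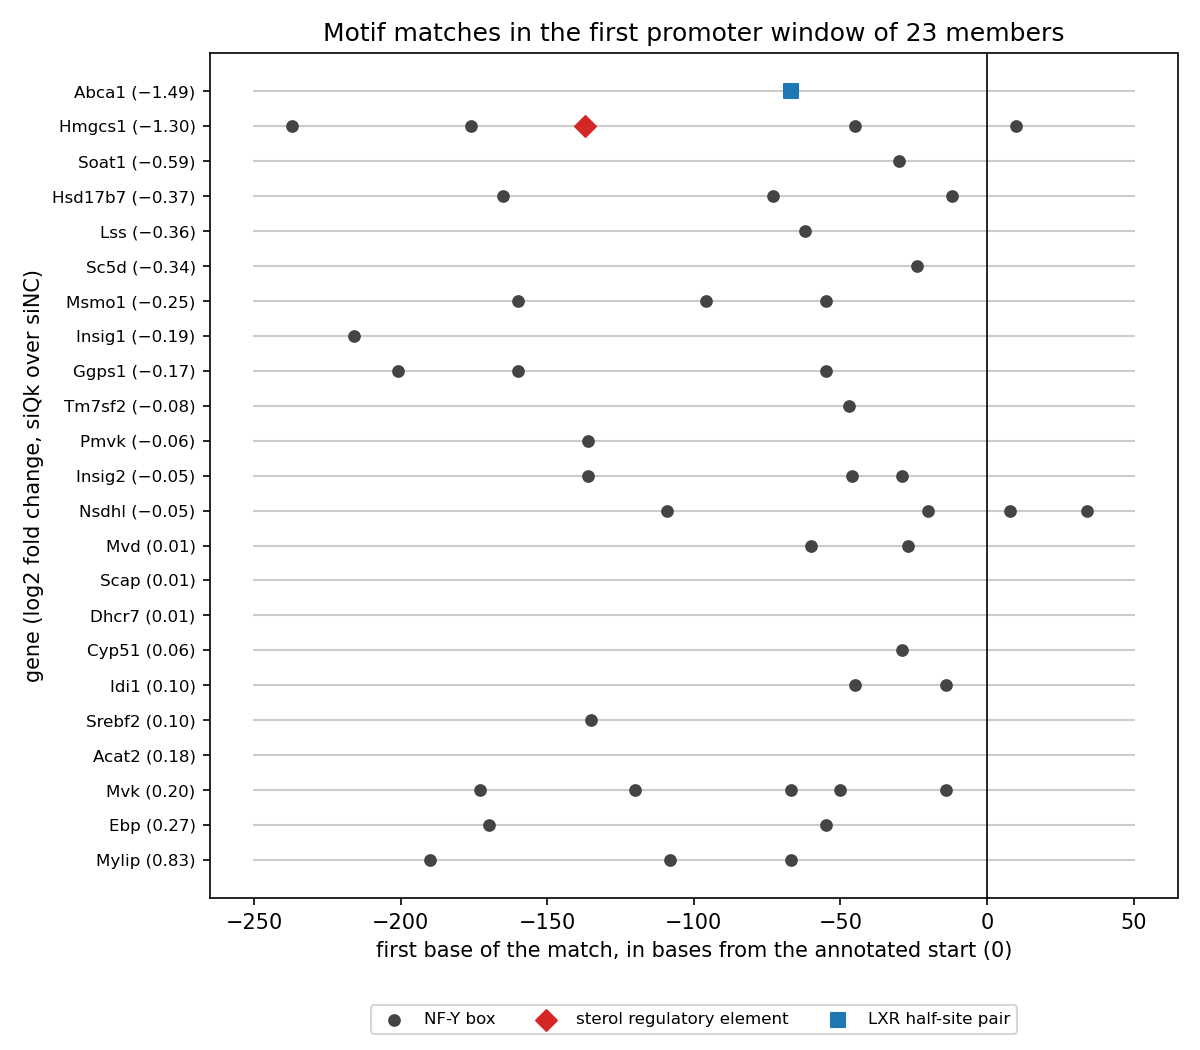
First base of each motif match in the first promoter window of 23 genes, in bases from the annotated start (x axis), with genes as lines labelled by their log2 fold change. Circles are CCAAT (NF-Y box), the diamond is TCACCCCAC (sterol regulatory element) and the square the DR4 element of Abca1 (LXR). CCAAT matches lie in most lines whatever the change of the gene, and Hmgcs1 is the gene with a TCACCCCAC match, 137 bases before the start.

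Mylip, the ligase that sends LDL-family receptors to degradation and so curbs cholesterol uptake, had the highest log2 fold change of the 28 genes. Its level was low, at 0.669, 1.55 and 1.13 RPKM in siNC and 1.99, 2.51 and 2.10 in siQk. All siQk libraries lay above all siNC libraries in RPKM and after TMM scaling. The log2 fold change of 0.83 (SE 0.27) was not called (edgeR adjusted p = 0.051, with an unadjusted P over 0.01). It was called higher under 5 of 16 alternatives, which were DESeq2 (0.82), library sizes alone (0.97), no filter (0.85), the replicate block (0.89) and the fit without siNC replicate 2 (1.13).

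Soat1 makes the cholesteryl esters in which cells store excess sterol. It (Entrez gene 20652) lies at chr1:156428108-156474328 on the minus strand. Its level was 14.5, 14.0 and 11.0 RPKM in siNC and 9.39, 11.3 and 8.60 in siQk. In RPKM siQk replicate 2 overlapped siNC replicate 3, and after TMM scaling no library overlapped. The log2 fold change was -0.59 (SE 0.15, edgeR adjusted p = 0.0249), and the call was lost with upper quartile scaling (-0.53), with library sizes alone (-0.43), and without siNC replicate 1 (-0.47) or 2 (-0.56) or siQk replicate 1 (-0.56) or 3 (-0.51). Stard4, a sterol carrier between membranes and an SREBP target, was at 17.3, 17.1 and 20.7 RPKM in siNC and 24.0, 19.7 and 23.2 in siQk. The groups overlapped, with a log2 fold change of 0.13 (95% interval -0.11 to 0.38).

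Abca1 moves cholesterol and phospholipid out of the cell to apolipoproteins, apolipoprotein E in the brain. It fell more than any other gene of the 28. The gene (Entrez gene 11303) lies at chr4:53030789-53159988 on the minus strand. Its level was 32.1, 42.1 and 46.2 RPKM in siNC and 15.3, 15.6 and 16.6 in siQk. Every siQk library was below every siNC library, and the siQk libraries lay close together. The mean was 40.2 ± 7.23 (SD, n = 3) in siNC and 15.8 ± 0.706 in siQk. The log2 fold change was -1.49 (SE 0.11, edgeR adjusted p = 0.00058), a 2.80-fold lower level, and stayed between -1.59 and -1.34 under all 16 alternatives, each of which called it.

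The 250 bases before a transcript start of Abca1, at base 53159895, are shown because this promoter is the textbook target of LXR. Capitals mark 15 bases of its DR4 element, a pair of LXR recognition repeats set 4 bases apart. The first capital lies 67 bases before that start. RefSeq's outer bound of the gene, given above, lies 93 bases further upstream, so that the element falls within the gene as annotated. The pattern searched was TGACC, any 4 letters and GTAACC, and its free letters do not coincide with the spacer between the repeats. It was written after the sequence had been seen and was found in 0.0401% of tested genes with a window. That share is for this pattern and not for DR4 elements in general.
Abca1, chr4:53159896-53160145, minus strand: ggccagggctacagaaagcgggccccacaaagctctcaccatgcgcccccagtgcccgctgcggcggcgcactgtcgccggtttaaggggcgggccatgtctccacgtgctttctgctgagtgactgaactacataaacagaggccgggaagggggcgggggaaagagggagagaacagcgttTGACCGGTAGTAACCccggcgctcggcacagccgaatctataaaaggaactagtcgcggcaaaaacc

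Abcg1, the partner exporter that loads cholesterol onto lipoprotein particles and also an LXR target, was barely detected. Its level was 0.184, 0.472 and 0.156 RPKM in siNC and 0.381, 0.316 and 0.341 in siQk, from 67 to 337 tags a library. The groups overlapped, and the log2 fold change of 0.20 had a 95% interval of -0.78 to 1.18, so that a change of the size seen for Abca1 lay outside it. Without siNC replicate 2, the highest siNC library, it was called higher (0.87), and without siNC replicate 3 it was -0.10. Of the 3 LXR targets among the 28 genes, Abca1 was called lower, while the log2 fold changes of Mylip and Abcg1 were above 0 and not called.

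**Figure D4:**
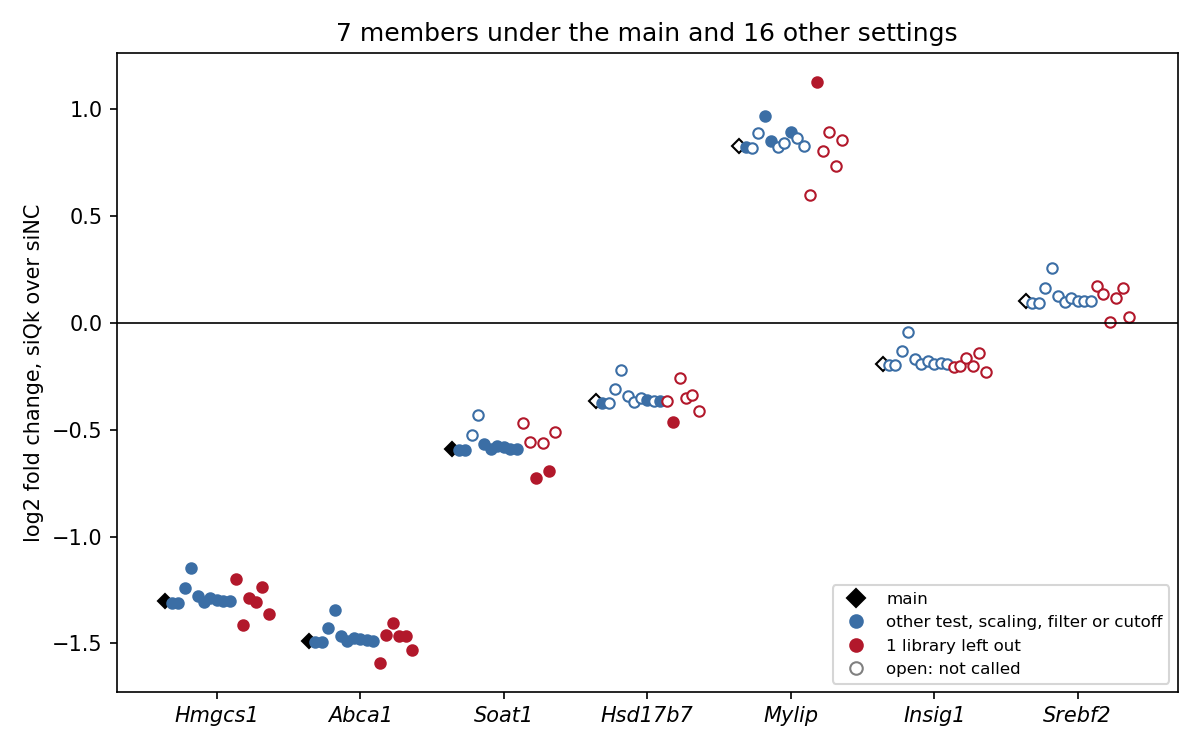
Log2 fold change, siQk over siNC (y axis), of 7 of the genes (x axis), with a diamond for the value reported, blue points for another test, scaling, filter or cutoff and red points for the fits with 1 library left out. Filled points are calls: Hmgcs1 and Abca1 are filled throughout, Soat1 in 10 of 16 alternatives, Mylip in 5 and Hsd17b7 in 4, and Insig1 and Srebf2 in none.

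Qki letters were counted in the 3'UTRs as a description, in the longest 3'UTR that GENCODE M21 gives a gene, on the transcript strand. ACTAAC or ACTAAT was found in 11 of the 28 genes (39.3%), 16 matches in all or 0.311 per kilobase, against 37.0% of tested genes and 0.329 per kilobase. Abca1 held 3, Hmgcs1, Soat1 and Stard4 held 2 each, 7 genes held 1 (Idi1, Lss, Cyp51, Msmo1, Nsdhl, Sc5d and Abcg1) and 17 held none. The 3 genes called lower were thus among the 4 with at least 2 matches, and Stard4 was the exception. The 7 genes with 1 match had log2 fold changes from -0.36 to 0.20 and the 17 with none from -0.37 to 0.83. Longer 3'UTRs can hold more matches, and the 3'UTRs of these 4 genes were 3156 (Abca1), 1782 (Hmgcs1), 6534 (Soat1) and 4231 bases (Stard4), against a median of 1559 for the 28. The Soat1 3'UTR exceeds the exon length of 5812 bases in the files, so that the authors' gene model is shorter than the annotation used for the count.

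The matches of the 3 called genes are shown, since they are the letters in question, each in 30 bases with the motif in capitals and its first base counted from the start of the 3'UTR.
Hmgcs1, base 1155: gaggtagttggaACTAATgtacagaactaa
Hmgcs1, base 1559: taaccacaccttACTAATagcaaggccaat
Soat1, base 1155: taatctttctctACTAATaatcccaaaatg
Soat1, base 3273: cattgttacagaACTAATtcatttatgata
Abca1, base 1950: gacaagtttgatACTAATgtcaacataggt
Abca1, base 2455: agtggaaaacttACTAACtgtgaatatgag
Abca1, base 2739: tgatactgaattACTAATttgtactttcat
Of these 7 matches, 6 read ACTAAT. Among the genes with a single match, none of them called, Idi1 had ACTAAT, while Lss, Cyp51, Msmo1, Nsdhl, Sc5d and Abcg1 had ACTAAC. The forms of the 2 matches of Stard4, which was not called, are not given here. The share of each form over all tested genes was not counted. The forms of called and uncalled genes can therefore not be set against each other.

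Over all tested genes with a 3'UTR, 13.1% of the 7465 genes with no match were called lower, 21.1% of the 2644 with 1 match and 31.0% of the 1741 with 2 or more. The shares called higher were 15.9, 12.9 and 7.70%. The median 3'UTR length over these classes was 1004, 1991 and 3286 bases, so that match number and length moved together, and their parts were not tested apart. No binding was measured in these libraries.

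**Figure D5:**
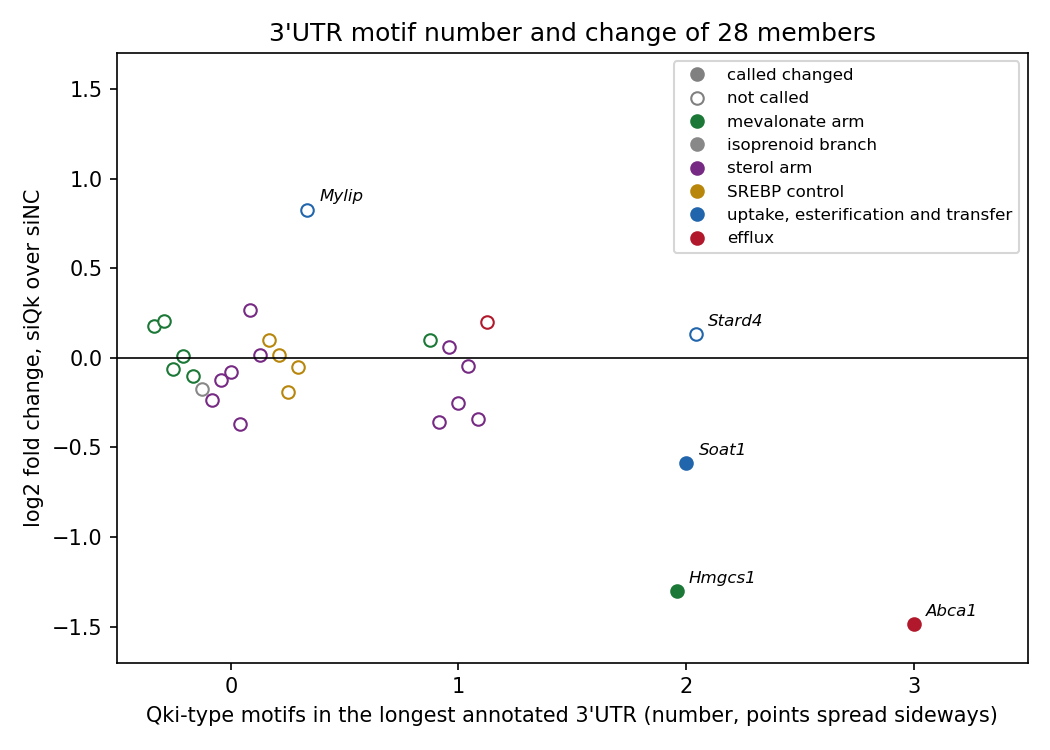
Log2 fold change of the 28 genes (y axis) against the number of ACTAAC or ACTAAT matches in the longest 3'UTR (x axis, points spread sideways within a number), coloured by step, filled where called. Hmgcs1, Soat1 and Abca1 sit at 2 or 3 matches below 0, and Stard4 at 2 matches above 0.

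A second list of 36 genes of the same pathway, chosen by function, was read for comparison, and 31 of them were tested. Of these, 2 were called higher and 10 lower, 38.7% in all, beside 31.0% of tested genes and 10.7% of the 28. The median log2 fold change was -0.18. The 7 genes named here were called with changes of 0.5 or more on the log2 scale. Apoe, the lipid acceptor of ABCA1 and also an LXR target, was at 50.5, 56.3 and 32.7 RPKM in siNC and 12.8, 15.8 and 17.3 in siQk (log2 fold change -1.76, SE 0.23, edgeR adjusted p = 0.0027). The siQk values all lay under the siNC values.

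Lower, too, were the lysosomal cholesterol exporter Npc1 (log2 fold change -1.15), the sterol transfer proteins Gramd1b (-1.08) and Gramd1c (-0.84), the cholesterol hydroxylase Cyp46a1 (-0.93), which starts cholesterol removal from neurons, and Srebf1 (-0.73). Srebf1 is the gene of SREBP-1, the paralog of SREBP-2 that favours fatty acid synthesis and is an LXR target. It was at 23.6, 18.8 and 20.4 RPKM in siNC and 13.4, 13.8 and 15.1 in siQk, while Srebf2 was not called. LXR activity was not measured, and its part in the changes of Abca1, Apoe and Srebf1 was not tested. Scarb1, the HDL receptor, was the 1 gene of these 7 that was higher, at 9.29, 11.4 and 7.08 RPKM in siNC and 19.0, 19.2 and 20.7 in siQk (log2 fold change 0.93, SE 0.18, edgeR adjusted p = 0.0084). The astrocyte and OL marker sums given above were lower in siQk as well, and their part in the changes of Hmgcs1, Soat1, Abca1 and the genes of the second list was not tested.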

How the data were processed

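RNA of mOPCs was measured in 3 siNC and 3 siQk libraries. The authors made mRNA libraries with the TruSeq RNA kit v2, which selects poly(A) RNA and does not mark strand, sequenced both ends, mapped the reads to mm10 (OLego) and counted them per gene (Quantas). Tool versions and annotation are not given in the sources used here. They deposited an expected count of tags per gene, not normalized, and the RPKM, which recomputing from the tags, exon length and library total gave back. Totals were 58166490 to 141045937 tags. Between libraries of one group the chi-square per degree of freedom was at least 36.3, so each counted as 1 replicate.

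Expected counts were rounded and 12505 genes with an average logCPM over 0 were fitted with edgeR 4.0.16 (limma 3.58.1, R 4.3.3), using its quasi-likelihood test, TMM factors and the group as the only term. The study names edgeR, the filter and the cutoffs, but no scaling or model terms. A gene was called at P under 0.01 and an adjusted p (Benjamini-Hochberg over the 12505 genes) under 0.1. The standard error is the size of the log2 fold change over the square root of F, and intervals use them with the fit's degrees of freedom. The script was tested on simulated data. The alternatives were DESeq2 1.42.0, other scalings and filters, an FDR under 0.05 alone, thinning to the smallest library, a replicate block and each library left out.

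The members, the lists and the tests were chosen with earlier results of these data known. By the rule for named genes, values in every library are given for members called with a log2 change of 0.5 or more in size and for regulators, uptake and efflux genes, and the others by range. From the second list the rule takes the 8 largest calls past the same size, of which 1 is not reported here. Promoters (GRCm38.p6) are from RefSeq and 3'UTRs from GENCODE M21. Libraries of other cell types, isoforms and exons were not analysed here.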

Additional observations from a re-analysis of the deposited data

How the results depend on the processing

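Over the 28 genes and 16 alternatives (15 for Abcg1, which an average logCPM over 1 removed), 407 values kept their direction and their side of the threshold, 6 lost a call (Soat1 each time), 12 gained one and 22 changed sign. No value that changed sign was a call. With upper quartile scaling Nsdhl (0.014) and Insig2 (0.0092) were positive, and with library sizes alone Pmvk (0.090), Fdps (0.049), Sqle (0.025), Tm7sf2 (0.078), Nsdhl (0.11) and Insig2 (0.098). Leaving out 1 library at a time gave ranges that spanned 0 for Pmvk (-0.17 to 0.026), Tm7sf2 (-0.21 to 0.13), Nsdhl (-0.13 to 0.036), Mvd (-0.10 to 0.11), Cyp51 (-0.024 to 0.14), Dhcr7 (-0.084 to 0.076), Idi1 (-0.042 to 0.20) and Abcg1 (-0.10 to 0.87). The causes were not tested. The number of the 28 called higher, 0, was 1 with DESeq2, with no filter and with the replicate block (Mylip each time), 2 with library sizes alone (Acat2 and Mylip), and 0 to 2 with 1 library left out (Mylip and Abcg1 without siNC replicate 2). The number called lower, 3, ranged from 2 to 4. The median log2 fold change of the 28 was 0.022 without siNC replicate 1 and 0.094 with library sizes alone. All tested genes gave 3879 calls, 2478 to 3704 with 1 library left out (2478 without siQk replicate 1) and 2796 with the replicate block. Libraries that share a replicate number did not vary together (correlations of their deviations -0.053, -0.15 and -0.34). The deviations were taken from group means and depend on each other, so these values cannot tell whether the numbers pair libraries. The labels do not say so either. With the block, Mylip and Hsd17b7 were called besides the 3. Qk, Hmgcs1 and Abca1 were called under all 16 alternatives. Of the 56 group means in RPKM, 8 moved by more than 1 SD after TMM scaling.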
